A study of Mus musculus with 6 samples.

Results

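Gap junction connexins are the proteins through which neighboring cells exchange ions and small metabolites. The genes described here are *Gja1*, *Gja4*, *Gjb1*, *Gjb2*, *Gjb5* and *Gjb6*, chosen by gene name among the non-control probes of the array. They are 6 of 34298 gene names, and each is read by 1 probe. Organoids, which are epithelial cultures grown in 3 dimensions from tissue stem cells, had been prepared from the esophagus and from the stomach corpus glands of mice that the labels of both tissues number 1, 2 and 4, and each array holds the organoids of 1 tissue of 1 mouse. There were thus 3 esophagus and 3 stomach arrays, all labelled as controls at passage 0. Organoids were harvested on day 8, except for the stomach organoids of mouse 4, harvested on day 7. Both media contained EGF, noggin, FGF-10, a TGF-β receptor kinase inhibitor, a ROCK inhibitor, nicotinamide and N-acetylcysteine. The stomach medium also contained WNT3A and R-spondin1 conditioned media and gastrin, whereas the esophagus medium contained forskolin, so that tissue and medium cannot be told apart in any comparison below. The labels give no strain, sex or age for these mice.

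Connexins assemble into a hemichannel in the plasma membrane, and hemichannels of adjacent cells dock to form a gap junction. The alpha group (*Gja* genes) and the beta group (*Gjb* genes) differ in which partners they dock with and in what their channels let pass. In stratified squamous epithelia such as epidermis, *Gja1* (Cx43), *Gjb2* (Cx26) and *Gjb6* (Cx30) are the well-known connexins, while *Gjb1* (Cx32) is the connexin of hepatocytes and other glandular epithelia.

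Connexin transcripts differed between esophageal and stomach organoids. *Gjb1* was 177-fold higher in stomach organoids, while *Gja1* was 31.7-fold and *Gjb2* 9.85-fold higher in esophageal organoids. Over the alternatives described below, the log2 difference ranged from 4.30 to 5.80 for *Gja1* and from 2.95 to 4.32 for *Gjb2*. *Gjb6* was above background in esophageal organoids alone, with a large spread between mice, and *Gja4* was dim in both. *Gjb5* did not rise well above background on a single array. By limma with Benjamini-Hochberg adjustment over all 55681 probes, at an adjusted p under 0.05, 4 of the 6 genes were higher in esophageal organoids, 1 in stomach organoids, and 1 did not pass. The count of 4 fell to 2 in 4 of the 6 fits that left out 1 array (without the esophagus array of mouse 2 or any 1 of the stomach arrays), which ended the *Gja4* and *Gjb6* calls. Over all probes, 12.2% passed in either direction, 5.94% with the esophagus higher and 6.22% with the stomach higher. The median log2 difference, esophagus minus stomach, was 2.08 over the 6 genes, the midpoint of 0.87 for *Gja4* and 3.30 for *Gjb2*, and 0.02 over all probes. No *Gja4* stomach value was well above background, and its difference ranged from 0.48 to 2.60 over the alternatives. The median rests partly on it. The 6 genes were chosen with earlier results of these data known. This median, the counts of calls and the separation of arrays given next therefore describe these 6 only. Of the 10 other connexin genes reported here, 0 were called, and 0 had non-overlapping groups at the brightest probe. For all 6 genes the arrays of one tissue lay entirely above those of the other, 5 with the esophagus above and 1 with the stomach above, against 28.6% of probes in either direction, 15.2% with the esophagus and 13.4% with the stomach above. For a single gene, an exact permutation test of 3 arrays against 3 cannot give a two-sided p below 0.1.

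**Figure D1:**
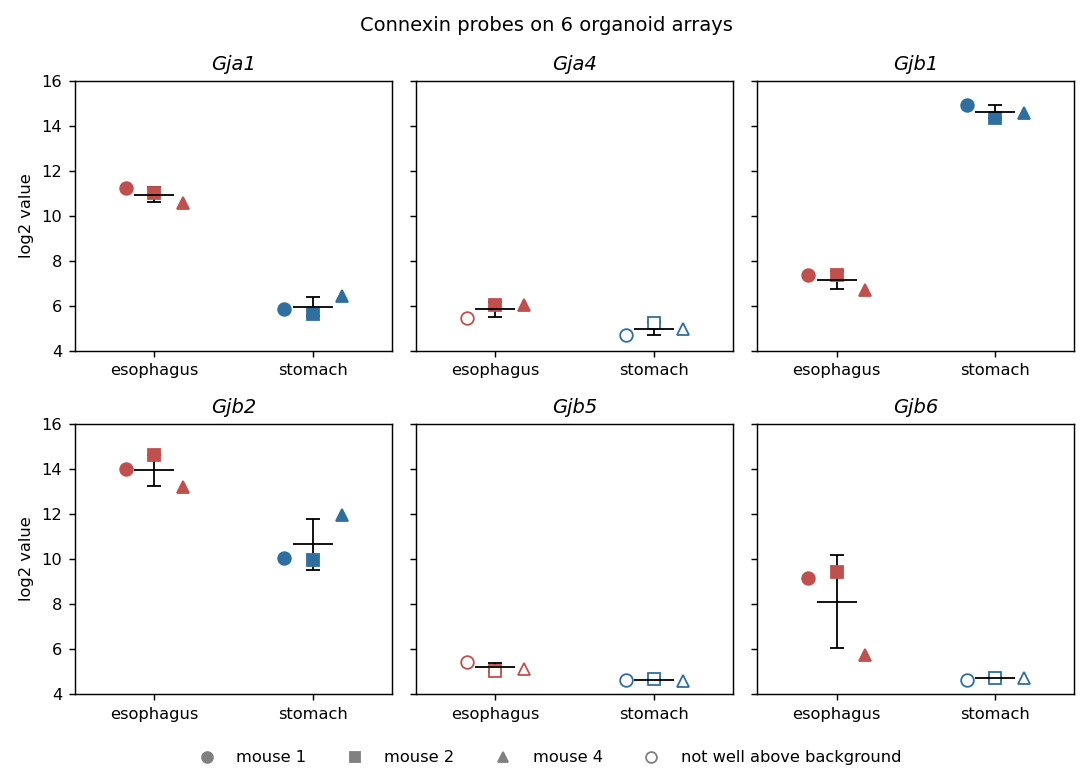
Deposited log2 values of the 6 connexin probes on each array (y axis), with esophageal and stomach organoids side by side, one marker shape per mouse and open markers for values not well above background. *Gjb1* lies near 14.6 on stomach arrays and near 7.2 on esophagus arrays, *Gja1* and *Gjb2* lie higher on esophagus arrays, and the esophagus array of mouse 4 lies apart from the other two for *Gjb6*.

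Sequences just upstream of the start sites of the 4 genes with the largest differences are printed to show what lies next to the genes that differed. They are the 250 bases before the start from RefSeq, build GRCm38.p6, read 5′ to 3′ on the gene's strand. Capitals mark matches, on either strand, to any of 7 short motifs. These were the AP-1 site, spelled TGANTCA, and the GC box bound by Sp factors, spelled GGGCGG. The TATA box was searched as TATAAA and the cAMP response element as TGACGTCA. Motifs of endoderm factors were a FOXA site, for which TGTTTAC was searched, and an HNF1 hexamer, for which GTTAAT was searched. The E-box was searched as CACGTG, and none of the motifs overlapped another in the windows shown. *Gja1* is at chr10:56377050-56377299 (plus strand), *Gjb1* at chrX:101383482-101383731 (plus strand, the last of 4 listed starts), *Gjb2* at chr14:57104703-57104952 (minus strand) and *Gjb6* at chr14:57133612-57133861 (minus strand).
Gja1: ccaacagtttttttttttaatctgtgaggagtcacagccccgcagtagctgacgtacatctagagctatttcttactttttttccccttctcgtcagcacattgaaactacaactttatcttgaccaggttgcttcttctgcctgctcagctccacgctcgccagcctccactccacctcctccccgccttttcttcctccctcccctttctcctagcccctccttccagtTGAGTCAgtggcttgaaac
Gjb1: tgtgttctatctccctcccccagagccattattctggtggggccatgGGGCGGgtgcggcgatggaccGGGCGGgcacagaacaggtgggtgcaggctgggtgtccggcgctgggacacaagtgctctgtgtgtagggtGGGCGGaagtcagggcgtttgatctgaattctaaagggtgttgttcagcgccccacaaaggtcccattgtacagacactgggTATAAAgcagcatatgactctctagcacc
Gjb2: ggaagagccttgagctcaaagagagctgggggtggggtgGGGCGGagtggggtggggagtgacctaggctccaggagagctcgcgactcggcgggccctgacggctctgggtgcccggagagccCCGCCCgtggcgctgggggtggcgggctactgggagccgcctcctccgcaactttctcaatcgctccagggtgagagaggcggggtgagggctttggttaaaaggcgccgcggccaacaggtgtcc
Gjb6: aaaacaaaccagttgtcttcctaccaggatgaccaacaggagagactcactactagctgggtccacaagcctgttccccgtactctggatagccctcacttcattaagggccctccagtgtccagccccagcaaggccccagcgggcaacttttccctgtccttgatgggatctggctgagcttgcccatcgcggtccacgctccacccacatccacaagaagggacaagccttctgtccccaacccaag
The *Gja1* window held 1 AP-1 match, TGAGTCA, from -19 to -13 relative to the start, and 6.75% of 32851 promoter windows of this length hold one. The *Gjb2* window held GC boxes at -211 and, on the minus strand, at -126, a motif found in 32.7% of windows. At the start shown, *Gjb1* had GC boxes at -203, -182 and -111 and a TATA box at -29, the latter found in 12.4% of windows. None of these motifs matched the *Gjb6* window, whose GC content was 56.8% against 69.2% for *Gjb2*. The windows of *Gja4* and *Gjb5* held a GC box at -79 and, on the minus strand, a TATA box at -243, respectively, and the start 2 window of *Gjb1* held the HNF1 hexamer at -48, a motif found in 6.43% of windows. The windows at starts 1 and 3 of *Gjb1* held none of the motifs, and the start shown had the most matches of the 4. Each share is for a single window, not for the best of 4. The matches are a description of letters, and neither binding nor the use of a start was measured.

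*Gjb1* was the only one of the 6 genes that was higher in stomach organoids. Its probe (NM_008124, mm9, chrX:98580902-98580961, plus strand) had log2 values of 14.93, 14.37 and 14.60 on the stomach arrays of mice 1, 2 and 4 and of 7.39, 7.39 and 6.70 on the esophagus arrays. Raw median intensities were 29100.5, 10102.5 and 29700 on stomach arrays and 177, 178 and 100 on esophagus arrays, over a local background of 20 to 22. All 6 values were clearly over background by the scanner flag, so esophageal organoids gave a low but measured *Gjb1* signal. The log2 difference was -7.47 (SE 0.24, 95% interval -8.03 to -6.91, adjusted p = 8.82e-07 by limma, n = 3 per tissue). Within mice 1, 2 and 4 it was -7.54, -6.98 and -7.89. Only 79 of the 55681 probes were higher in the stomach by more.

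*Gja1* encodes the most widely expressed connexin, known from cardiac muscle, fibroblasts and keratinocytes. Its probe (NM_010288, mm9, chr10:56109814-56109873, plus strand) was printed 10 times per array. Mean log2 values over these spots were 11.23, 11.02 and 10.58 on the esophagus arrays of mice 1, 2 and 4 and 5.83, 5.61 and 6.43 on the stomach arrays. The standard deviation between spots was at most 0.198, below the SD between mice (0.33 for esophageal and 0.42 for stomach organoids). The difference was 4.99 (SE 0.26, 95% interval 4.39 to 5.58, adjusted p = 1.13e-05 by limma), and it was 5.40, 5.40 and 4.16 within mice 1, 2 and 4, mouse 4 having the lowest esophagus and the highest stomach value. Stomach organoids still gave *Gja1* signal: all 3 stomach arrays were well above background, 8 of 10 spots on that of mouse 2. Because *Gja1* is also a gene of fibroblasts and smooth muscle, their markers were read on the same arrays. None of 9 fibroblast markers was detected (flagged well above background) on each of the 3 arrays of either tissue, and their summed log2 level was 43.1 to 44.9 in the esophagus and 44.8 to 45.2 in the stomach. Among these markers, *Pdgfra*, *Pdgfrb*, *Lum*, *Thy1* and *Vim* were detected on none of the 6 arrays. Of 5 smooth muscle markers, *Tagln* alone was detected throughout a tissue, with a difference of 0.09 (adjusted p = 0.956). *Cnn1* (0.90, adjusted p = 0.11) and *Acta2* (0.65, adjusted p = 0.452) did not pass and were each detected on 1 esophagus array. The summed smooth muscle level was 27.9 to 32.6 in the esophagus and 27.5 to 29.8 in the stomach, and the part of these cells in the *Gja1* difference was not tested. In such bulk samples, fewer cells of a type and less RNA per cell cannot be told apart.

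*Gjb2*, a connexin of cochlea, liver and keratinocytes, was bright in both tissues. Its probe (NM_008125, mm9, chr14:57717629-57717688, minus strand) gave log2 values of 14.02, 14.61 and 13.22 in the esophagus of mice 1, 2 and 4 and of 10.04, 9.95 and 11.97 in the stomach. The groups did not overlap, but mouse 4 had the lowest esophagus and the highest stomach value. The difference was 3.30 (SE 0.57, 95% interval 1.97 to 4.63, adjusted p = 0.00783 by limma). Within the mice it was 3.98, 4.67 and 1.25, and without both arrays of mouse 4, an alternative added after the values had been seen, it was 4.32 (adjusted p = 7.4e-05).

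*Gjb6*, which lies beside *Gjb2* and is known from cochlea and differentiating keratinocytes, gave log2 values of 9.17, 9.44 and 5.72 on the esophagus arrays of mice 1, 2 and 4 and of 4.63, 4.71 and 4.72 on the stomach arrays (NM_001010937, mm9, chr14:57742226-57742285, minus strand). Raw median intensities were 586, 735 and 53 in the esophagus and 21, 24 and 29 in the stomach, where local background was 18 to 22. *Gjb6* was detected on all 3 esophagus arrays and on no stomach array, and mouse 4 stood far below the other esophagus arrays. The esophagus level was at least 10.1-fold higher, a bound that sets each stomach array at the lowest signal among its probes well above background or at the probe's own value, whichever is higher, and which leaves out the spread between mice. The measured difference was 3.42 (SE 0.87, adjusted p = 0.0422 by limma). Without the esophagus array of mouse 4 it was 4.62 (adjusted p = 5.55e-06), whereas leaving out any other single array gave 2.76 to 3.44 and the call was lost. It was also lost with background correction on mean intensities at an offset of 50 (2.42, adjusted p = 0.146) or 16 (adjusted p = 0.0568). Both alternatives changed the offset and replaced median by mean intensities, so these changes cannot be told apart. The call was lost as well with trend and robust variances (adjusted p = 0.135) and with averaged probes (adjusted p = 0.0512). Averaging left the values of *Gjb6*, read by 1 probe, unchanged. In all, the call was lost in 9 of 15 alternatives. Scaling background-subtracted intensities to the 75th percentile gave 5.98 (adjusted p = 0.0064).

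**Figure D2:**
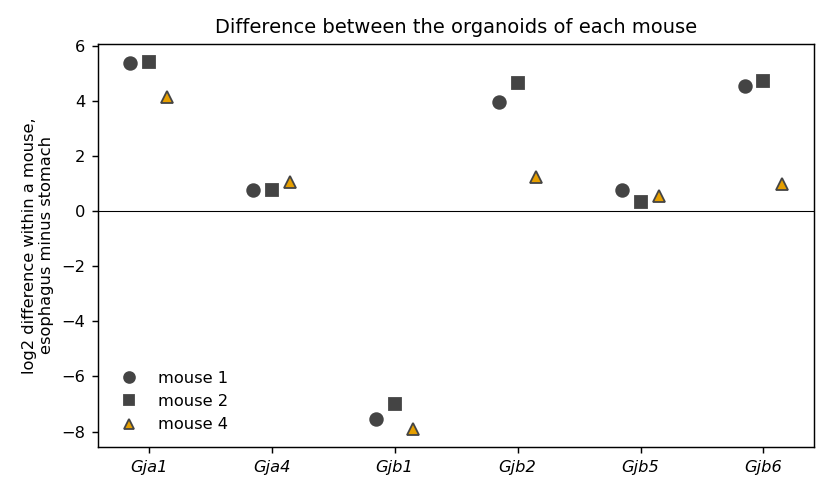
Log2 difference between the esophageal and stomach organoids of each mouse (y axis) for the 6 connexin genes (x axis), one marker shape per mouse. For *Gja1*, mouse 4 gives 4.16 against 5.40 in both other mice. For *Gjb2* and *Gjb6*, mouse 4 lies lowest, at 1.25 for *Gjb2*, while mice 1 and 2 give 3.98 to 4.72 (for *Gjb6* against stomach values that were not detected), and for *Gjb1* the 3 mice lie between -7.89 and -6.98.

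On the esophagus array of mouse 4, where *Gjb6* was low, 7 of 9 suprabasal squamous markers also had their lowest esophagus value at the brightest probe. Their summed log2 level over 9 genes was 108.5 on that array against 117.9 and 120.6 on the other esophagus arrays, and 8 of the 9 were well above background on each. Loricrin (*Lor*), a cornified envelope protein, was at 10.38 against 14.44 and 16.94, the widest gap in the list, and *Krt4* was at 12.73 against 13.55 and 14.67. *Krt13* was at 16.41 against 16.60 and 16.85, and involucrin (*Ivl*) at 7.90 against 8.07 and 6.90. The second *Krt10* probe was highest on this array, at 9.66 against 9.27 and 9.55. Basal markers summed to 103.4 against 102.5 and 103.1. Other lists also had members that were lowest on this esophagus array: 8 of 13 columnar gastric, 5 of 9 endothelial and 3 of 5 smooth muscle markers, the last summing to 27.9 against 30.6 and 32.6. The part of these levels in the *Gjb6* difference was not tested. This array was also alone on the second of 2 slides, so mouse and slide cannot be told apart for it.

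On the stomach array of mouse 4, where *Gjb2* was highest, suprabasal markers summed to 61.3 against 57.1 on each of the others, and basal markers to 60.9 against 59.4 and 59.0. At the brightest probes, this array was the highest stomach array for 7 of 9 suprabasal and 5 of 7 basal markers, and also for 6 of 9 endothelial, 5 of 9 fibroblast and 4 of 7 immune cell markers. Endothelial markers summed to 55.2 against 52.5 and 51.4. Of the basal markers, 6 were detected on it against 4 and 3 on the others, and *Krt5* and *Krt15* were detected on this stomach array alone at their brightest probes (*Krt15* at 6.22 against 5.30 and 5.05), while a second *Krt5* probe was detected on no stomach array. The 2 probes of *Krt13* disagreed, at 6.35 against 5.38 and 5.12 and at 7.57 against 8.19 and 8.50. *Col17a1*, *Krt6a* and *Krtdap* were detected on none of the stomach arrays. The part of these markers in the *Gjb2* and *Gja1* differences was not tested, and the mouse and its earlier harvest cannot be told apart.

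The remaining connexins were dim. *Gja4* (Cx37), known from endothelium and from oocytes, gave log2 values of 5.47, 6.02 and 6.04 on esophagus arrays, of which 2 were well above background, and of 4.69, 5.25 and 4.98 on stomach arrays, where none was (NM_008120, mm9, chr4:126988848-126988907, minus strand). The groups did not overlap. The measured difference was 0.87 (SE 0.22, 95% interval 0.35 to 1.38, adjusted p = 0.0423 by limma). No fold is given, because *Gja4* was detected on none of the stomach arrays and not on the esophagus array of mouse 1. The call was lost in 5 of the 6 fits that left out 1 array (adjusted p 0.0609 to 0.163, kept only without the esophagus array of mouse 1). The size ranged from 0.48, with mean intensities and an offset of 50 together, to 2.60 with 75th percentile scaling. Of 9 endothelial markers, *Kdr*, *Pecam1* and *Esam* were detected on all 6 arrays at their brightest probes, although a second *Kdr* probe was detected on none, and *Cdh5*, *Cldn5* and *Emcn* on none. *Esam* was higher in stomach organoids (-2.53, adjusted p = 0.00506), as was *Vwf* at the brighter of its 2 probes (-0.63, adjusted p = 0.0302) but not at the other (0.02). *Kdr* (0.25) and *Tie1* (0.38) did not pass. Over 9 endothelial markers the summed log2 level was 48.7 to 50.03 in the esophagus and 51.4 to 55.2 in the stomach, and the part of these markers in the *Gja4* difference was not tested.

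*Gjb5*, a beta connexin of skin and placenta, had log2 values of 5.40, 5.02 and 5.12 in the esophagus and of 4.63, 4.67 and 4.56 in the stomach (NM_010291, mm9, chr4:127032053-127032112, minus strand). The groups did not overlap, but none of the 6 values was well above background, so no fold is given. The difference of 0.56 (SE 0.16) did not pass, with an adjusted p of 0.056 by limma.

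Of the 10 other connexin genes reported here, limma called 0 at an adjusted p under 0.05, and 0 had an unadjusted p under 0.05 at the brightest probe, against 12.2% of all probes called. Of these 10, 8 were detected on none of the 6 arrays, as were 23997 of all 55681 probes, and the median log2 difference was 0.04. The 2 others, *Gjc1* and *Gjc3*, were each detected on 1 esophagus array and *Gjc3* also on 1 stomach array, with differences of 0.32 (adjusted p = 0.457) and 0.07 (adjusted p = 0.927).

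**Figure D3:**
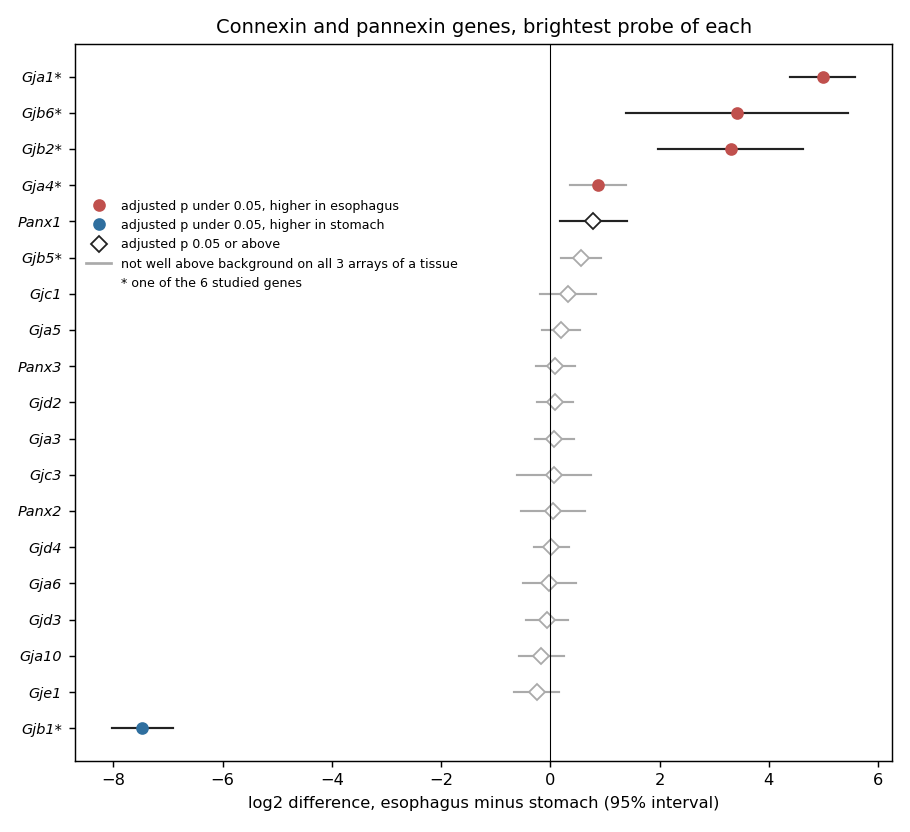
Log2 difference, esophagus minus stomach, with its 95% interval (x axis) for the brightest probe of each connexin and pannexin gene reported here (y axis), with the 6 chosen genes starred and color and marker shape giving the call. *Gja1* and *Gjb2* lie to the right at 4.99 and 3.30, *Gjb1* lies at -7.47, and most others lie near 0. *Gjb6* also lies to the right, but its stomach values were not detected, so it is not ranked against them.

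Several of these genes lie close together. On chromosome 4, the probe of *Gjb5* lies 43.2 kb from that of *Gja4* (mm9), and both genes were dim, with differences of 0.56 and 0.87. On chromosome 14, the *Gjb2* and *Gjb6* probes lie 62.9 and 87.5 kb from that of *Gja3*, a connexin of the lens. *Gja3* was detected on none of the 6 arrays, with a difference of 0.08 (adjusted p = 0.839). The difference was 3.30 for *Gjb2*, and for *Gjb6* only the bound on the mean given above applies, since its stomach level was not detected.

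**Figure D4:**
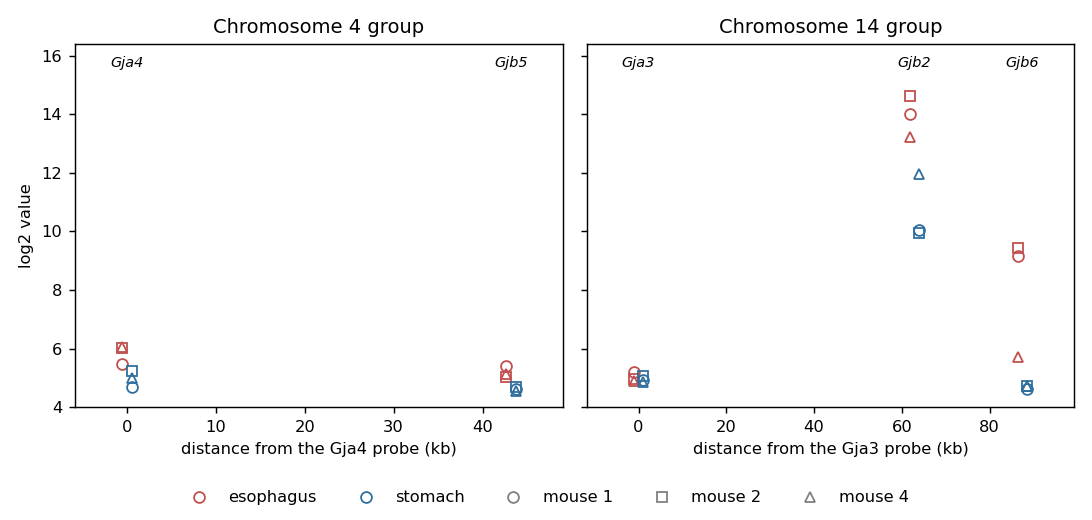
Log2 values on each array (y axis) of the connexin probes in the chromosome 4 and chromosome 14 groups, against distance in kb from the first probe of the group (x axis), with color for tissue and marker shape for mouse. At *Gjb2*, tissues separate by 3.98, 4.67 and 1.25 log2 units in mice 1, 2 and 4. At *Gjb6*, the esophagus values of mice 1, 2 and 4 lie at 9.17, 9.44 and 5.72, above stomach values that were not detected. They overlap at *Gja3* and lie close together at *Gja4* and *Gjb5*.

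Pannexins form channels of a similar kind but are unrelated in sequence. *Panx1* was at 10.26, 10.95 and 11.22 in the esophagus and at 10.13, 10.19 and 9.73 in the stomach. Its groups did not overlap, but the difference of 0.79 did not pass (SE 0.27, adjusted p = 0.109), although it did without the esophagus array of mouse 1 (1.06, adjusted p = 0.0181). *Panx2* and *Panx3* were detected on none of the 6 arrays.

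Of 18 genes reported here for proteins that bind, traffic, phosphorylate or degrade connexins, 1 was higher in esophageal and 2 in stomach organoids, with a median difference of -0.22, against 12.2% of all probes called (5.94% and 6.22% by direction) and a median of 0.02. The zonula occludens scaffold *Tjp3* was at 11.44, 9.63 and 9.19 in the esophagus and at 13.52, 13.54 and 13.98 in the stomach, a difference of -3.59 (SE 0.52, adjusted p = 0.00335). *Tjp1*, whose product binds the tail of the *Gja1* protein, differed by -0.59 and did not pass (adjusted p = 0.322), although it did without the esophagus array of mouse 1 (-0.94, adjusted p = 0.0289). The kinase anchor *Akap5* was at 4.67, 5.55 and 5.17 in the esophagus and at 7.33, 6.44 and 7.62 in the stomach (adjusted p = 0.00728). *Tsg101*, a sorting factor for endocytosed proteins, was the gene that was higher in the esophagus, by 0.71 (adjusted p = 0.0184), a call lost under 5 alternatives: 75th percentile scaling (adjusted p = 0.111), trend and robust variances (0.067) and the fits without the esophagus array of mouse 4 (0.0502) or the stomach array of mouse 1 (0.0744) or 2 (0.0818). The other 10 genes detected throughout a tissue, *Cav2*, *Cnst*, *Csnk1d*, *Erp29*, *Nedd4*, *Prkca*, *Smurf2*, *Src*, *Ubqln4* and *Wwp1*, did not pass, with differences at the brightest probe from -0.71 for *Prkca* to 0.28 for *Ubqln4*. Further probes of these genes reached -1.14 (*Nedd4*, adjusted p = 0.312) and 0.49 (*Erp29*, adjusted p = 0.248). With 1 array left out, *Prkca* passed without the esophagus array of mouse 2 (-0.96, adjusted p = 0.0197) and *Wwp1* without the stomach array of mouse 4 (-0.79, adjusted p = 0.0395).

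The tissue labels were checked against epithelial markers. All 13 columnar gastric markers were higher in the stomach, among them *Krt8* at 16.65 to 16.88 against 5.21 to 5.83. At the brightest probe, 5 of 7 basal and 7 of 9 suprabasal squamous markers were higher in the esophagus, among them *Krt5* at 17.07 to 17.08 against 4.85 to 5.39. *Krt1* went the other way (-0.92, adjusted p = 0.0421), and *Ivl* did not pass (0.05). *Itga6* did not pass at its brightest probe (0.57, adjusted p = 0.171) and was higher in the stomach at the other (-1.57, adjusted p = 0.00194). The probes of *Trp63*, a basal cell transcription factor, disagreed: the brightest gave -1.22 (adjusted p = 0.0249), while the others were detected on all esophagus arrays and on no stomach array, with the esophagus at least 49.6-fold higher at each of them. Between 45.5% and 51.1% of non-control spots per array were well above background and none was saturated.

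The genes whose levels followed each connexin most closely over the 6 arrays were sought among 13487 detected genes. For *Gja1* they were *Cadm1* and *Slc39a6* (Pearson r = 0.9995 and 0.9993), for *Gjb1* *Lgals4* and *Enpp5* (both 0.9996), for *Gjb2* *Fyn* and *Btbd10* (0.9959 and 0.9958) and for *Gjb6* *Slc10a6* and *Cdsn* (0.9984 and 0.9979). *Gjb6* was detected on no stomach array, so 3 of its 6 points are at background. *Cdsn* encodes corneodesmosin, an adhesion protein of cornified cells, and *Lgals4* encodes a galectin of digestive epithelium. With 2 tissues and 3 arrays each, any gene that separates the tissues scores high here: 200 genes exceeded 0.99 with *Gja1* and 316 with *Gjb1*, but 21 with *Gjb2* and 22 with *Gjb6*, whose values varied more within a tissue.

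**Figure D5:**
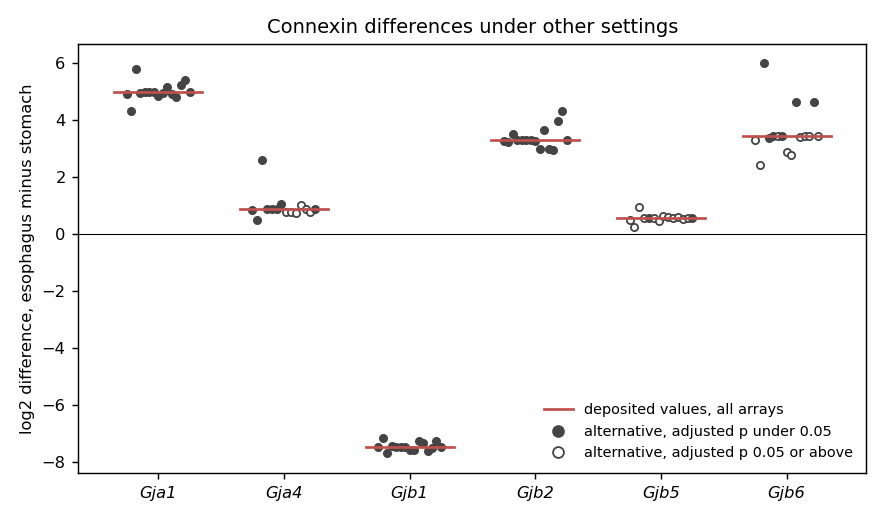
Log2 difference, esophagus minus stomach (y axis), of the 6 connexin genes (x axis) with the deposited values of all arrays (line) and under each alternative (points, filled where the adjusted p was under 0.05). *Gjb1* stays between -7.69 and -7.15 and *Gja1* between 4.30 and 5.80, while *Gjb6* ranges from 2.42 to 5.98 and *Gja4* from 0.48 to 2.60.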

How the data were processed

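RNA of 6 organoid samples was hybridized to single-color Agilent mouse arrays with probes of 60 bases, and spots were quantified by the authors in Feature Extraction 11.5.1.1 (per the file headers). The deposited scanner files hold spot intensity, local background and flags, not normalized between arrays. The deposited table holds log2 values that the authors background corrected and quantile normalized. Normexp on median intensities (offset 15, found here, not stated by them) and quantile normalization rebuilt the table to within 0.0726 at most, the median deviation being 0.00433. The 2029 empty cells were the 2029 outlier-marked spots. Results use this table, and rebuilt intensity values serve as alternatives.

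Spots of a probe were averaged. Tissues were compared without a block by lmFit and eBayes (limma 3.58.1, R 4.3.3), with Benjamini-Hochberg adjustment over 55681 probes, and differences are esophagus minus stomach. A probe was well above background on an array when most of its spots carried that flag, and is then called detected there. The number of arrays limits the precision. Levels of different probes were not compared, gene names and coordinates (mm9) are those of the files, and 17 of 19 connexin and pannexin accessions matched their symbol in RefSeq. The script for the fit was tested on simulated data.

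The labels give the arrays of both tissues the same mouse numbers, which were taken to name the same animals. Over all probes, the deviations of same-numbered arrays from the mean of their tissue had r = 0.025, 0.012 and -0.008 (mice 1, 2 and 4), within the range of -0.073 to 0.040 between different numbers. Alternatives were offsets of 16 and 50 on mean intensities, 75th percentile scaling, outlier-marked spots kept, a filter on dim probes, eBayes with trend and robust variances, averaged probes, the mouse as a block, each array left out and other thresholds. Leaving out mouse 4 was added after seeing the data. Named genes are every probe of the 6 connexins, the other connexins, pannexins and partners detected on all arrays of a tissue, up to 3 defining genes of a marker list and the 2 genes most alike in pattern to each detected connexin. Further markers, the dim other connexins and dim pannexins were named after their values had been seen. The genes, lists and motifs were chosen with earlier results of these data known. Some genes of the lists are not reported here, and list counts leave them out.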

Additional observations from a re-analysis of the deposited data

How the results depend on the processing

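*Gja1*, *Gjb1* and *Gjb2* kept their direction and call under all 15 alternatives, and none of the 6 chosen connexins reversed. *Gjb6* lost its call with mean intensities at an offset of 16 (3.30, adjusted p = 0.0568) or 50 (2.42, adjusted p = 0.146). Both settings changed the intensity measure as well as the offset. Its call was also lost with trend and robust variances (3.42, adjusted p = 0.135) and averaged probes (3.42, adjusted p = 0.0512). *Gjb5* passed with trend and robust variances (0.56, adjusted p = 0.0267) and with averaged probes (0.56, adjusted p = 0.0389). Each of the 6 genes has 1 probe, so averaging probes left their values unchanged. For them, that setting changed only the variances estimated by eBayes and the number of tests adjusted for. Without mouse 4, *Gja4* lost its call (0.77, adjusted p = 0.137) and *Gjb6* kept it (4.63, adjusted p = 1.99e-05). The causes of the other changes were not tested. With 1 array left out, differences ranged from 4.81 to 5.22 for *Gja1*, 0.72 to 1.05 for *Gja4*, -7.60 to -7.24 for *Gjb1*, 2.95 to 3.96 for *Gjb2*, 0.46 to 0.64 for *Gjb5* and 2.76 to 4.62 for *Gjb6*, and the count of connexins higher in the esophagus fell from 4 to between 2 and 3, being 2 without the esophagus array of mouse 2 or without any 1 of the stomach arrays. The count higher in the stomach stayed at 1. With the mouse as a replicate block, no call of the 6 connexins changed (adjusted p = 3e-04 for *Gja1*, 0.0251 for *Gja4*, 3.03e-05 for *Gjb1*, 0.0263 for *Gjb2*, 0.104 for *Gjb5* and 0.0376 for *Gjb6*). Scaling to the 75th percentile moved the median log2 difference of all probes from 0.02 to 0.19. Signal near background limits what *Gja4*, *Gjb5* and the stomach level of *Gjb6* can show.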
